A study of Caenorhabditis elegans with 93 samples.

Results

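Of the 31618 regulatory elements of the ATAC-seq table, 2399 lay on the arms of chromosome V, where an arm was taken as every element that starts below 6 Mb or above 15 Mb. The left arm held 1376 elements and the right arm 1023, and the 3358 elements between them formed the centre with which the arms were compared. Each element is an interval of 150 bases that an earlier survey had classed as a promoter or enhancer. The cut was made on position alone and fell inside ordinary stretches of elements: the last element of the left arm, chrV:5996230-5996380, had a mean normalised count of 70.8 and the first element of the centre, chrV:6000479-6000629, one of 1267, while on the right side chrV:15000131-15000281 had 420.1 just inside the arm and chrV:14999127-14999277 had 96.5 just outside it. Coordinates are given as in the table, on the assembly WBcel235.

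The samples were untreated Caenorhabditis elegans embryos of the wild-type strain N2, released by bleaching from worms grown at 20 degrees on the OP50 bacterial lawn. Lineages A, B and C each began with 2 hermaphrodites of the fourth larval stage. Generation 0 is the parental plate of a lineage before the repeated bottleneck, and every later generation was founded by 2 worms of the one before. ATAC-seq libraries numbered 11 for lineage A, 10 for B and 10 for C, 1 at each sampled generation out of 0, 2, 4 and so on to 20, and 31 RNA-seq libraries, which lack generation 14 of C and include its generation 8, gave the expression of nearby genes. All samples of a lineage descend from the same founders, so a p-value here measures the spread between generations and not between independent populations. In whole embryos, fewer cells of a type and less accessible DNA per cell cannot be told apart.

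ATAC-seq inserts a transposase into open DNA, so the read count over an element reports how accessible that promoter or enhancer is. The chromosomes of this worm have no single centromere. On the autosomes the central stretch is rich in conserved and widely expressed genes and recombines little, whereas the arms recombine more, carry many repeats with methylation of histone H3 lysine 9, lie near the nuclear envelope and hold the young, expanded gene families. Chromosome V is the extreme case, since its arms carry large clusters of chemoreceptors, nuclear hormone receptors, F-box proteins and C-type lectins, many of which act in sensing, detoxification and defence.

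Total reads over elements ranged from 2995631 to 12251653 per ATAC-seq library with a median of 6027220, and 3 reads, the limit that a count of 0 allows, corresponded to between 1.45 and 5.37 normalised counts. Libraries differed in the share of counts that fell in the 500 highest elements of the whole table, which ran from 6.87% to 21.5%. In 7 libraries (generations 4, 8 and 20 of A, 0, 2 and 20 of B, 16 of C) this share was 6.87% to 10.3%, against at least 12.3% in the other 24, and values without them are given beside the results that they move. The generation 6 libraries were among the shallower ones, with 3447802 reads in A, 4268022 in B and 4089002 in C, which placed them 2, 7 and 5 in order from the shallowest. In the RNA the 14 maternal and the 7 muscle markers of embryos were all detected. Of the lists for adult tissue, the 9 sperm markers summed to between 27.3 and 86.8 normalised counts, the 6 yolk protein genes to between 1901 and 3605 and the 5 adult germline markers to between 1826 and 4777.

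Elements were sparser on the arms than in the centre but about as accessible. The left arm held 229 elements per Mb and the right arm 173, against 373 in the centre. The median of the mean normalised count was 127 on the left arm, 105 on the right arm, 115.1 in the centre and 118 over all elements. The middle of the distribution was likewise similar, with quartiles of 71.3 and 205 on the left arm, 57.3 and 191 on the right arm and 69.5 and 188 in the centre. Very high elements were uncommon. A mean of 1000 was exceeded by 4 elements on the left arm (0.29%) and 14 on the right arm (1.37%). In the centre 32 did so (0.95%), and over all elements the share was 1.45%.

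The highest element of the arms was chrV:20778370-20778520, with a mean of 3954 ± 1467 (SD, n = 31) and a range from 1137 in generation 4 of lineage A to 7937 in generation 18 of lineage C. Its nearest gene was hif-1, the hypoxia-inducible transcription factor, with its transcript start 1962 bases away. The element chrV:16356015-16356165, nearest to pptr-1, a regulatory subunit of protein phosphatase 2A, followed at 3392 ± 1286 (SD, n = 31). Both were low and high in the same libraries, with minima in generation 4 of A and maxima in generation 18 of C, the libraries with the lowest and the highest share of counts in the 500 highest elements. The next, chrV:18723038-18723188, was steadier at 2469 ± 355 (SD, n = 31), although the nearest gene, Y17D7C.2, averaged only 75.6 normalised RNA counts. At the median of the arms stood chrV:1154756-1154906 with 118.2 ± 20.6 (SD, n = 31), nearest to the calmodulin gene cmd-1 (30145 RNA counts on average), and chrV:15351910-15352060 with 118.2 ± 21.8 (SD, n = 31), nearest to the chemoreceptor gene srx-58 (4.27 RNA counts on average). Equal accessibility was thus found 1440 bases from a highly expressed gene and 691 bases from a nearly silent one. These are only the nearest genes, and whether the elements act on them was not tested.

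Taking for each element the closest protein-coding gene interval gave 1225 genes for the arms and 1281 for the centre. Of the arm elements 42.5% lay inside their gene and 52.9% within 500 bases of an annotated transcript start, against 47.4% and 46.4% in the centre. The genes near arm elements were expressed at a lower level. Their median was 202 normalised counts, or 81.0 per kilobase of gene interval, compared with 542 and 232 for genes near centre elements. On the right arm the median was 114 and on the left arm 307. A mean below 10 was found for 18.8% of the arm genes and 8.04% of the centre genes, and a mean above 1000 for 25.6% and 38.9%. Antisense 22G-RNAs are secondary small RNAs, of which some act in silencing and others, in the CSR-1 pathway, are associated with gene activation. They were listed for 38.2% of the arm genes and 34.7% of the centre genes. Among listed genes their median levels were 22.3 and 24.9.

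Many arm genes had no element at all. Of the 2707 protein-coding genes with a start on the arms, 45.3% were the nearest gene of at least 1 element, against 57.5% of 2225 in the centre, and 66.7% of the arm genes without an element had a mean below 10 counts. Elements were rare at the chemoreceptors, seven-pass receptors mostly used by sensory neurons, in either place: 87 of 643 such genes on the arms and 34 of 233 in the centre were assigned an element. The 87 arm genes had a median of 4.63 RNA counts, but their 130 elements had a median accessibility of 150 counts, above the 118 of all arm elements. For nuclear hormone receptors, 76 of 124 genes were assigned 115 elements with a median of 138 counts and their median expression was 282. For F-box proteins, adaptors of ubiquitin ligases, 41 of 81 genes were assigned 51 elements with a median of 82.9 counts. The 22 cytochrome P450 genes, enzymes of detoxification, had 26 elements with a median of 66.8 counts, and the 18 C-type lectin genes had 32 with a median of 116 counts.

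Variation over the 31 libraries was slightly larger on the arms. The median SD of the log2 normalised count (1 count added) was 0.275 on the left arm, 0.298 on the right arm, 0.270 in the centre and 0.280 over all elements. When the elements of the table were split into equal classes by mean level, with limits at 68.4, 118 and 201 counts, the arms exceeded the centre in the lowest class (0.396 against 0.365), in the second (0.283 against 0.266) and in the third (0.230 against 0.218), but in the highest class the centre was more variable (0.245 against 0.233). Among arm elements with a mean of at least 100, the largest SD on the log2 scale, 0.66, belonged to chrV:185813-185963 near arid-1, with values from 56.2 in generation 2 of B to 530.1 in generation 18 of C and a median of 192. The next were chrV:1151430-1151580 near cmd-1, from 432 to 2794, and the element near pptr-1, from 967 to 6640, both lowest in generation 4 of A and highest in generation 18 of C. Without the 7 libraries of low share the SD of these elements was 0.61, 0.33 and 0.33 on the log2 scale, and the median SD was 0.266 on the arms and 0.255 in the centre.

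The level of the arms relative to the centre was not constant over the generations. In each library the median over arm elements was divided by the median over centre elements. Generation 6 gave 0.984 in A, 0.964 in B and 0.920 in C. The 25 libraries of the other later generations ran from 0.932 to 1.09 with a mean of 1.04 ± 0.035 (SD), and 24 of them were above all 3 of generation 6. The exception was generation 2 of A at 0.932, which lay below generation 6 of A and B. The 3 libraries of generation 0 had 0.993, 1.02 and 0.987. Within lineages, generation 6 was lower than the mean of the other later generations by a ratio difference of -0.0363 in A, -0.0874 in B and -0.121 in C, on average -0.0816. An exact two-sided permutation of the generation labels within lineages (810 relabellings) gave p = 0.0037, and p = 0.0077 without the 7 libraries described above. The lineages were handled in parallel, however, and the generation 6 libraries deviated together, so they are not independent. When whole generations were relabelled over the 8 that all lineages share, generation 6 was the lowest and the exact two-sided permutation p was 0.125, the smallest that this design can give. Generation 6 had been singled out with results of these data known.

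**Figure D1:**
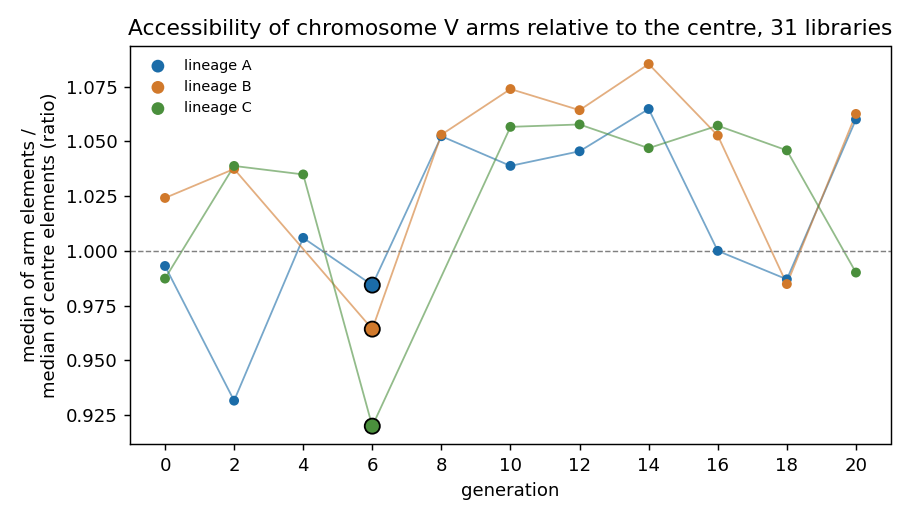
Ratio of the median normalised count of the 2399 arm elements to that of the 3358 centre elements (vertical axis) in each of 31 ATAC-seq libraries by generation (horizontal axis), with 1 point per library, lines joining a lineage and outlined points for generation 6. The generation 6 libraries sit at 0.984, 0.964 and 0.920, and generation 2 of lineage A at 0.932.

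Generation 6 was also the only one of 6 comparisons in which limma called arm elements. After the filter on a mean of at least 10 counts, 2387 of the 2399 arm elements were tested among 31498 in all. At generation 6, against the other later generations with lineage as a block, limma called 190 arm elements at an adjusted p under 0.05. That is 7.96% of those tested against a background of 7.0% over all elements. This fit counts the 3 generation 6 libraries as independent, although they were handled in parallel and deviated together. Adjusted p-values at generation 6, here and below, carry that limit, and generation 6 was chosen with results of these data known. The directions were uneven: 162 arm elements, or 6.79%, fell and 28, or 1.17%, rose, where over all elements 4.62% fell and 2.38% rose. In the centre 107 of 3351 fell and 103 rose. The median log2 difference was -0.08 over the arms and 0.05 over the centre. In 30 arm elements the 3 generation 6 libraries lay below all 25 others (1.26%, background 0.606%) and in 8 they lay above them (0.335%, background 0.397%), while the centre had 11 below and 21 above.

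The difference was smallest beside the boundary. On the right side the median log2 difference was 0.01 in the first Mb of the arm, then -0.07, -0.14, -0.15 and -0.16 in the next stretches of 1 Mb and -0.06 in the last, and in the third stretch 16 of 103 elements fell and none rose. On the left side the medians moved from -0.03 in the first Mb to -0.12 at the outer end. In the centre, 9 of the 10 stretches had a positive median. The contrast between arms and centre was present in each class of mean level, from -0.13 against -0.04 in the lowest to 0.03 against 0.21 in the highest. The contrast was shared by other chromosomes. When the same outer fractions were taken on the other autosomes, their medians at generation 6 were -0.09 on I, -0.06 on II, -0.12 on III and -0.07 on IV, with positive medians in each inner stretch, whereas the outer stretch of X had a median of 0.01.

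**Figure D2:**
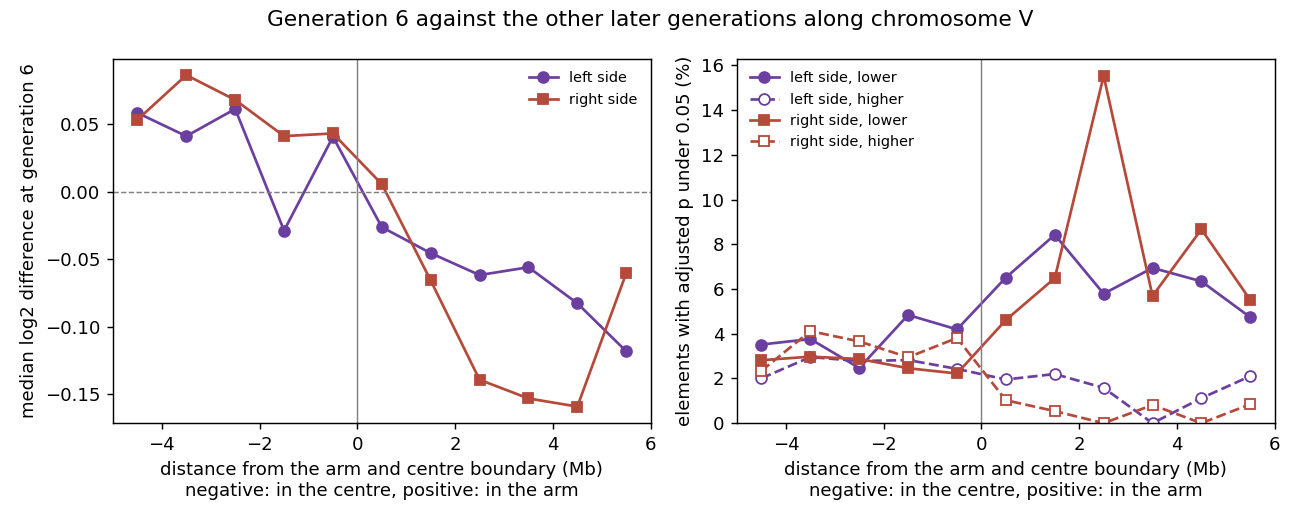
Left, median log2 difference between generation 6 and the other later generations over elements in 1 Mb stretches; right, the percentage of elements that fell (filled) or rose (open) at an adjusted p under 0.05; the horizontal axis is the distance from the boundary between arm and centre. Medians are mostly above 0 in the centre and reach -0.16 on the right arm.

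The elements with the largest differences in each direction were mostly low in counts. The element chrV:1197533-1197683, inside wrb-1, had 1.77, 2.80 and 3.09 normalised counts at generation 6 of A, B and C, which were 1, 2 and 2 reads, against 4.67 to 22.04 with a median of 13.1 in the other 25 later libraries. The groups did not overlap, and the log2 difference was -1.88 ± 0.37 (SE, adjusted p = 0.0028, limma). At chrV:104222-104372, beside the ribosomal protein gene rps-27, lineage A had no read at generation 6, which allows up to 5.30 normalised counts, whereas B had 18.2 and C 13.9 and the other libraries 5.37 to 34.8. The log2 difference of -1.58 ± 0.49 (SE, adjusted p = 0.042, limma) thus came from lineage A, and without that lineage it was -0.08. Upward, chrV:904694-904844 near trm-2A had 266.7, 182.1 and 221.1 at generation 6 and 60.3 to 235.09 with a median of 120.4 in the others, of which 1 reached into the range of generation 6, for a log2 difference of 0.92 ± 0.28 (SE, adjusted p = 0.044, limma). The element chrV:5712289-5712439 near peli-1 had 109.5, 88.3 and 91.2 against 32.0 to 92.2, a log2 difference of 0.85 ± 0.22 (SE, adjusted p = 0.019, limma). When any lineage was left out, neither upward call passed the threshold, and the call in wrb-1 was lost without lineage A (adjusted p = 0.092, limma).

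**Figure D3:**
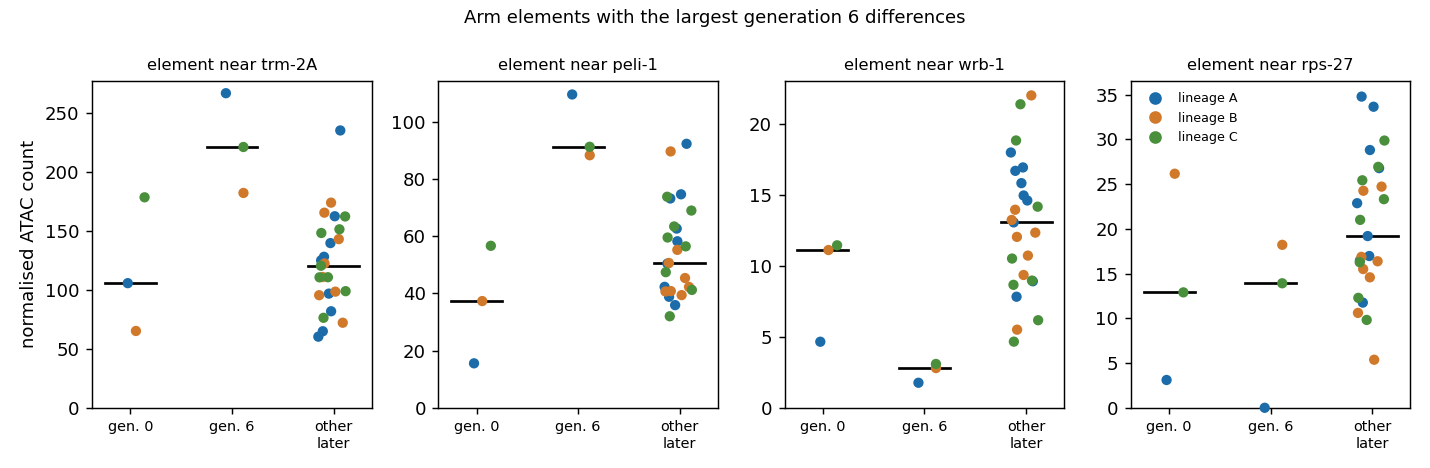
Normalised ATAC-seq counts (vertical axis, from 0) of the 2 arm elements with the largest generation 6 difference in each direction, 1 point per library in generation 0, generation 6 and the 25 other later libraries, with bars at medians. The 3 generation 6 points of the element in wrb-1 lie below all 25 others, and the one at 0 beside rps-27 is lineage A.

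Further elements were picked out after their values had been seen, most of them at a higher level. The element chrV:1434388-1434538 lay 2326 bases outside its nearest gene, ges-1, which encodes a gut-specific esterase. It had 144.8, 169.5 and 112.9 counts at generation 6 and between 184.6 and 340.9 in the other later libraries. The groups did not overlap (log2 difference -0.78 ± 0.15 SE, adjusted p = 0.0020, limma). At chrV:4188198-4188348, inside the nuclear hormone receptor gene nhr-114, generation 6 had 127.2, 121.9 and 131.4 counts and the others 133.1 to 210.1. Again there was no overlap (-0.51 ± 0.11 SE, adjusted p = 0.0044, limma). Inside irg-2, a gene first described in the response to infection, the low element chrV:4042294-4042444 had 12.4, 16.8 and 15.5 against 17.2 to 55.5. In the other direction, chrV:5798195-5798345 near nstp-3 had 273.7, 280.2 and 239.6 against 127.9 to 237.1. Since these were picked with their values known, the 3 lineages lying on one side follows from the choice. Larger falls at a mean of at least 100 were less even. Near T26H5.14, chrV:15448602-15448752 had 33.6, 95.3 and 52.6 against 71.0 to 162.9 (-0.98 ± 0.18 SE, adjusted p = 0.0017, limma). Near irld-40, chrV:1664792-1664942 had 86.5, 165.3 and 103.6 against 116.7 to 271.9 (-0.80 ± 0.15 SE, adjusted p = 0.0019, limma). In both, lineage B lay inside the range of the others.

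By gene group, the counts are to be read against the 6.79% of all arm elements that fell and the 1.17% that rose at generation 6. Of 130 chemoreceptor elements, 12 fell and 2 rose, with a median log2 difference of -0.08, the same as over all arm elements. Those that fell included the element assigned to srz-25 (127, 177 and 156 counts against 196 to 337) and that assigned to srw-32 (44.1, 64.4 and 49.5 against 60.8 to 146). Of 114 elements of nuclear hormone receptors 7 fell and 2 rose, with a median of 0.00. Of 51 F-box elements 5 fell and none rose, the largest fall being at fbxa-72 (88.3, 89.7 and 38.6 against 76.1 to 162). In the group of names starting with dct, dod, irg, cnc or nlp, which is not limited to immune genes, 5 of 30 fell and 1 rose. Its members nlp-29 and nlp-31 encode antimicrobial peptides of the epidermis, and their elements had 24.7 to 51.2 against 33.6 to 89.3 and 60.04 to 72.7 against 71.6 to 120.5.

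The remaining groups were small. Among fatty acid enzymes 2 of 15 elements fell, both of acs-2, an acyl-CoA synthetase of mitochondrial fatty acid oxidation, and among collagens 2 of 8 fell. One element fell and none rose for cytochromes P450 (26 tested), glutathione S-transferases (5), ribosomal proteins (12, the element beside rps-27) and histones (4, at his-3). UDP-glucuronosyltransferases (20) and Skp1-related genes (5) had 1 in each direction, and the MATH and BTB group (3) had 1 that rose. No element passed the test for C-type lectins (32 tested), transthyretin-related genes (4), homeobox and hlh genes (8), two-pore potassium channels (9) and ligand-gated ion channels (11), and no insulin gene of the arms was assigned an element.

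The lower accessibility at generation 6 had no counterpart in RNA that passed the test. The 162 elements that fell were assigned to 143 genes, 120 of which were tested for expression, and none of these changed in the same comparison. Their median log2 difference in RNA was -0.02, and 70 were lower. Over all 995 tested genes of the arms none was called and 27 had an unadjusted p under 0.05 in limma, where over the 16714 genes tested 0.012% were called and 1.5% had an unadjusted p under 0.05. For ges-1 the log2 difference in RNA was 0.01 ± 0.10 (SE) and for nhr-114 it was 0.03 ± 0.39 (SE). The lists of gut, muscle, epidermal, neuronal and maternal markers had no member called at generation 6, and the sums of each list at generation 6 lay inside the range of the other later libraries.

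How many arm elements were called at generation 6 depended on the test and on depth, but in each version more fell than rose. edgeR on the recovered reads called 97 (82 lower, background 3.69%) and DESeq2 176 (141 lower, background 7.14%). With the log2 read total of each library as a covariate 43 were called (42 lower, background 1.55%), after thinning every library to the shallowest 106 (99 lower, background 3.37%), and without the 7 libraries of low share 129 (111 lower, background 4.78%). Without lineage A 30 were called (30 lower, background 0.762%) and without lineage C also 30 (29 lower, background 0.886%), and in each case 27 of them were among the 190. The median over the arms stayed between -0.10 and -0.06 in these versions. Taken lineage by lineage, the median log2 difference was -0.05 in A, -0.05 in B and -0.09 in C on the arms and 0.05, 0.06 and 0.10 in the centre. The generation 6 effect differed between lineages at 1 arm element, the one beside rps-27 (background 0.0413%).

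No arm element was called as different between lineages. limma called 0 of 2387 for lineage A against the other lineages, 0 for B and 0 for C, with backgrounds of 0%, and edgeR and DESeq2 also called none. At an unadjusted p under 0.05 there were 99 arm elements for A (background 3.21%), 98 for B (background 4.8%) and 343 for C (background 17.2%). For C the number was 87 with the share of counts in the 500 highest elements as a covariate (background 2.87%) and 196 without the 7 libraries of low share (background 10.3%), a fit with fewer samples. Median log2 differences over the arms were -0.02 for A, 0.03 for B and -0.02 for C. The element near hif-1, for example, had a log2 difference of 0.56 ± 0.27 (SE, adjusted p = 0.28, limma) in C.

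From generation 0 to the later generations limma also called 0 of 2387 arm elements (background 0%), although 340 had an unadjusted p under 0.05 (background 11.4%), edgeR called none, and the median log2 difference was 0.04 over the arms and -0.01 over the centre. The generation 0 libraries were among the deeper ones, placed 25, 28 and 29 in order from the shallowest for A, B and C. With the log2 read total as a covariate limma again called 0. The 340 arm elements at an unadjusted p under 0.05 then became 207, for which no background is given. The number of calls depended on the tool. DESeq2 called 46 arm elements, 36 of them higher after generation 0 (background 1.09%), and with the share of the 500 highest elements as a covariate limma called 36, of which 26 were higher (background 1.08%). Over generations 2 to 20 no arm element had a slope that passed the test in limma or edgeR (limma background 0.00317%), and 161 had an unadjusted p under 0.05 (background 5.42%). DESeq2 called 8, all rising (background 0.135%), and the covariate 13, all rising (background 0.279%). The element near arid-1, whose count was largest in generation 18 of C, had a slope of 0.07 ± 0.02 log2 units per generation (SE, adjusted p = 0.055, limma).

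Changes of single libraries from their own generation 0 were more frequent on the arms. For each later library the log2 ratio to generation 0 was regressed on the log2 mean level, and the residual in SD units is the Z-score, which counts as a change beyond the cut-off of the study's methods, which lies between 2 and 3, in either direction. Of 67172 values on the arms 3.94% were changes, against 2.49% of 94024 in the centre and 3.06% over all elements, and the right arm (4.77%) exceeded the left arm (3.32%). The arms were above the centre in 28 of 28 libraries, with 2.13% to 4.88% and a median of 4.09% per library on the arms and 2.00% to 3.10% and a median of 2.47% in the centre. The libraries of a lineage share their generation 0, so these are not 28 independent comparisons. Gains made up more of the difference, with 2.52% against 1.36%, and losses were 1.42% against 1.13%. At least 1 change was found in 34.6% of the arm elements (background 30.4%). The rate fell steeply with level, from 10.8% of values in the lowest class of level to 1.04% in the highest on the arms, and from 7.24% to 0.560% in the centre, and the arms were above the centre in each class.

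**Figure D4:**
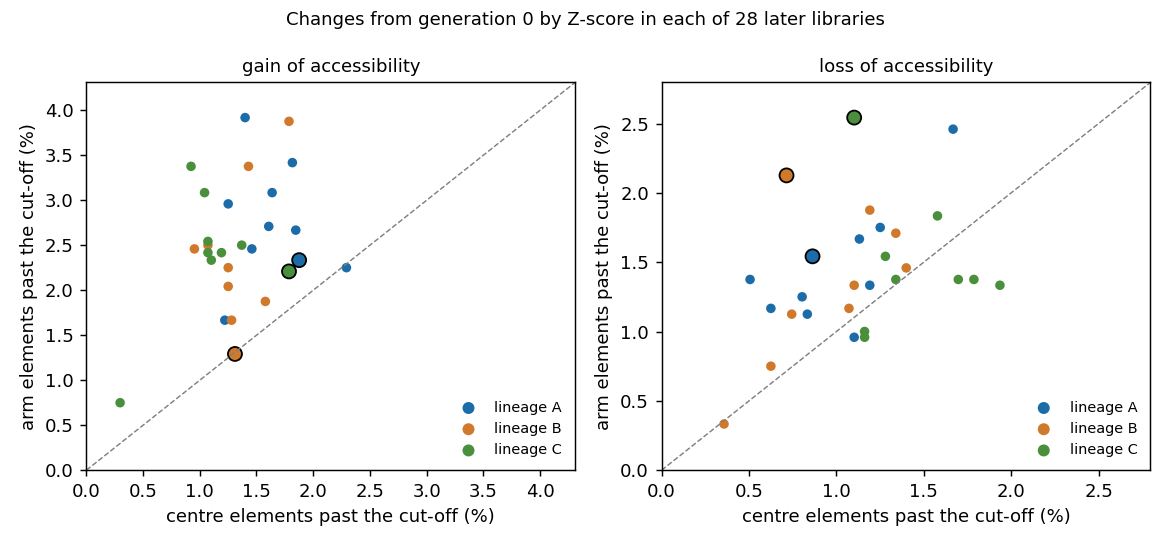
Percentage of arm elements (vertical axis) against percentage of centre elements (horizontal axis) past the Z-score cut-off in each of the 28 later libraries, for gains (left) and losses (right), with outlined points for generation 6 and a dashed line of equality. Gains were more frequent on the arms in 26 libraries and losses in 21.

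Runs of changes in consecutive sampled generations numbered 1986 on the arms. This is after setting aside 12 runs common to the 3 lineages, where each common run counts once in each lineage. Of these 353, or 17.8%, lasted at least 2 sampled generations, against 14.1% in the centre and 14.5% over all elements. The 10 longest runs, of 8 to 10 sampled generations, were all gains and belonged to elements with means of 7.99 to 37.1 counts. Runs that spanned generations 2 to 20 numbered 3 in lineage A, 2 in B and 3 in C, and all 8 were gains. A run of 10 sampled generations was possible only in A, which has 10 later libraries where B and C have 9. The 3 runs in A belonged to chrV:17297840-17297990 near K10G4.5, chrV:3668605-3668755 near Y39H10B.2 and chrV:16133383-16133533 near F44G3.7, whose generation 0 in that lineage held 4, 4 and 1 reads, or 3.11, 3.11 and 0.777 normalised counts. In generation 0 of B and C the first had 11.1 and 10.0 counts, the second 16.1 and 15.05 and the third 5.01 and 4.30. With the median of the lineage in place of generation 0 as the reference, the share of runs of at least 2 sampled generations was 4.34% on the arms, 3.10% in the centre and 3.97% over all elements, but a change that lasts through most of a lineage moves that median and cannot appear as a run against it. Without the 7 libraries of low share, which leaves out lineage B for want of its generation 0, 4.11% of the values on the arms were changes and 21.7% of the runs lasted at least 2 sampled generations, against 2.63% and 16.0% in the centre.

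In contrast to accessibility, the RNA of genes near arm elements changed widely after generation 0. Of 995 tested genes 431, or 43.3%, changed at an adjusted p under 0.05 in limma, against 39.6% of the 16714 genes tested and 41.2% of 1178 genes near centre elements. On the arms 251, or 25.2%, rose and 180, or 18.1%, fell, and over all genes 17.7% rose and 21.9% fell. Embryo markers moved in the same comparison. The 14 maternal markers summed to 62251 to 104191 counts in generation 0 and to 37100 to 71519 in the later libraries, with 13 of 14 falling, and the 7 muscle markers to 115751 to 143669 and 126106 to 290341, with 5 rising and 1 falling. For the other lists, 3 of 6 gut markers rose and 1 fell, 1 of 7 epidermal markers rose, 2 of 6 neuronal markers rose and 1 fell, 1 of 6 yolk protein genes rose and 1 fell, 4 of 5 adult germline markers fell, and of the 2 sperm markers tested 1 rose. The part of embryo stage in the changes near arm elements was not tested.

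**Figure D5:**
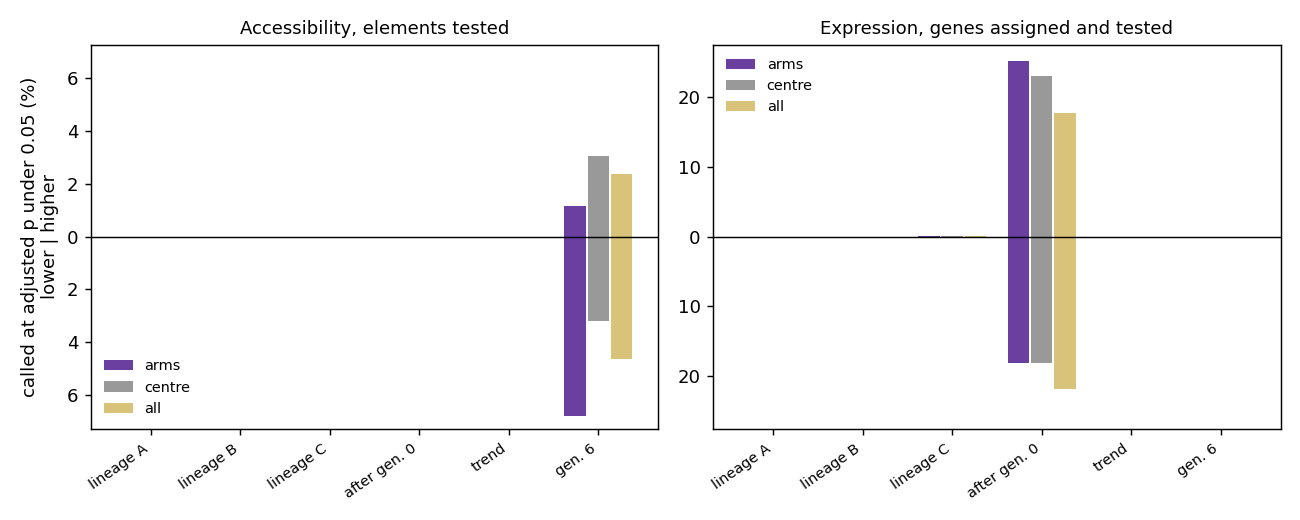
Percentage of features called at an adjusted p under 0.05 by limma in 6 comparisons, higher above the zero line and lower below it, for accessibility of tested elements (left) and expression of tested genes (right), on the arms of chromosome V, in its centre and over the whole table. Accessibility calls are at generation 6, where 6.79% of arm elements fell, and expression calls are almost all after generation 0, where 43.3% of arm genes changed.

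On the log2(count + 1) scale the largest rise after generation 0 was that of irg-2, with 0, 0.967 and 2.19 counts in generation 0 of A, B and C, 3 reads in all, and 14.7 to 217 with a median of 67.1 in the 28 later libraries. The groups did not overlap and the ratio was 73.6 (95% interval 25.2 to 357, exact and covering counting error only). The lectin gene clec-47 had 1 read in generation 0 and 0 to 103 counts later with a median of 57.6, at 0 in 2 of the 28, for a ratio of 152 with an interval of 27.2 to 6001. The largest falls were those of ugt-8, a UDP-glucuronosyltransferase, from 233, 154 and 651 counts to 19.3 to 488 with a median of 48.6 (log2 difference -2.38 ± 0.61 SE, adjusted p = 0.0029, limma), and of dhs-23, a short-chain dehydrogenase, from 432, 366 and 306 to 23.0 to 181 with a median of 82.5 (-2.16 ± 0.41 SE, adjusted p = 0.00015, limma). The groups overlapped for ugt-8 and, through the 2 later libraries at 0, for clec-47, but not for irg-2 and dhs-23. The single element of each of these genes did not pass the test in the same comparison, with log2 differences of 0.42 for irg-2, 0.50 for clec-47, 0.23 for ugt-8 and 0.20 for dhs-23.

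By gene group, expression near arm elements rose and fell after generation 0 for 7 and 1 of 26 tested chemoreceptors and 23 and 6 of 69 nuclear hormone receptors. For C-type lectins it was 4 and 1 of 13, and for the dct, dod, irg, cnc and nlp names 8 and 2 of 20. Of all tested arm genes 25.2% rose and 18.1% fell. The centre had 4 and 0 of 15 chemoreceptors and 7 and 1 of 34 nuclear hormone receptors. It also had 4 and 0 of 8 lectins and 1 and 0 of 6 of the dct to nlp names. The counts that follow are again those of the arms. F-box genes had 7 and 6 of 36, cytochromes P450 5 and 4 of 19 and UDP-glucuronosyltransferases 2 and 3 of 15. The other comparisons of expression gave few calls. For lineage A none of the 995 arm genes was called (background 0%). At an unadjusted p under 0.05 in limma there were 19, against 209 of all 16714 genes. For B none was called (background 0.012%), and 41 had an unadjusted p under 0.05, against 920 of all 16714. For C the gene Y102A5C.36 was higher (background 0.0359%), with 27.2 to 74.0 counts in C and 10.5 to 40.4 in A and 11.6 to 33.7 in B, overlapping ranges with a log2 difference of 1.35 ± 0.20 (SE, adjusted p = 0.00042, limma), while its element had a log2 difference of -0.11. Over generations 2 to 20 the lectin gene clec-42 fell (background 0.0239%) by a slope of -0.06 ± 0.01 log2 units per generation (SE, adjusted p = 0.035, limma), and neither of its 2 elements passed the test.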

How the data were processed

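Per the labels and the study's methods, the authors aligned ATAC-seq reads with Bowtie2 and counted those over published promoters and enhancers with BEDTools. The counts were scaled by DESeq2 size factors. The deposited signal values are these normalised counts, in which a value of exactly 1 was read as a count of 0. All other values were whole multiples of the normalised count of 1 read, so nothing was subtracted from them. The deposited RNA table holds size-factor normalised counts per gene (longest transcript, strand not used), without 21U-RNAs and genes that had no reads, and the small RNA table antisense 22G-RNAs per gene. Versions of these tools are not given in the sources used here. Generation 4 of lineage B and generation 8 of C (ATAC-seq) and generation 4 of B and 14 of C (RNA-seq) have no library. The methods state that they were not sequenced because the yield of RNA or cDNA was too low.

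Whole reads were recovered from the steps of each column: 100% of the values came out whole within 0.001 read. Since the values are normalised, limma 3.58.1 on log2(count + 1) was the main test (the design had assumed this unit), over features with a mean of at least 10, with Benjamini-Hochberg adjustment over all of them and a threshold of 0.05. A fold on this scale understates the change of low features. edgeR 4.0.16 and DESeq2 1.42.0 on the recovered reads were alternatives. The limma fit to accessibility was tested on simulated counts with known changes, for some of the comparisons only. The other fits and steps were not tested in this way. Intervals and the limit from 3 reads cover counting error only. Genes were located by the coordinates of the RNA table and matched by symbol to Ensembl release 115 (27398 of 27790). Other tools were R 4.3.3, Python 3.11.15, pandas 2.3.3 and scipy 1.17.1.

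The named features were, in each comparison, the 2 with the largest change in either direction among those past the threshold, and the elements of highest, median and most variable level and of the longest runs. Other names were chosen after their values were seen. The members and the gene lists were chosen with earlier results of these data known. Gene groups were formed by symbol, and marker lists cover maternal, muscle, gut, epidermal, neuronal, yolk, sperm and adult germline genes.

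The methods state that the lineages were handled in parallel, so generation could pair libraries across lineages. Deviations of 29 same-generation pairs had r from -0.42 to 0.58 (median 0.17, 19 over 0.1), and 291 other pairs had a median of -0.03. No genome sequence was used here, so GC content was not examined and no sequences are shown.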

Additional observations from a re-analysis of the deposited data

Results flagged for a closer look

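Among 47 sets of at most 10 libraries of a lineage in which values named above were checked, 8 had a library far from the others, where chance flags about 1 in 20 sets. Many of these features were named for extreme values, so that rate does not apply to them. The ratio of arms to centre in generation 6 of lineage C was 0.920 against 0.987 in the next library of that lineage. The element chrV:1154756-1154906 near cmd-1 reached 182.6 counts in generation 10 of B, and the next library had 134. The element chrV:3668605-3668755 near Y39H10B.2 reached 34.2 in generation 2 of B (next 19.3) and 27.8 in generation 6 of C (next 18.0). For RNA, Y102A5C.36 had 33.7 counts in generation 20 of B (next 20.8), ugt-8 had 304 in generation 2 of B (next 154), and dhs-23 had 366 in generation 0 of B (next 162) and 306 in generation 0 of C (next 149). The generation 6 difference of the element beside rps-27 varied between lineages, with log2 differences of -4.54 in A, 0.28 in B and -0.45 in C (adjusted p = 0.012 for the difference between lineages, limma).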

How the results depend on the processing

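Of the alternatives to the summary results, 112 were classed as the same and 19 as moved. Counts of calls were the same when equal, also at 0, or within 1.5 times of the main count, without regard to direction. Levels, spreads, shares and ratios were the same when within 1 SD between libraries or lineages of the main value. The median SD of the arms exceeded that of the centre by 0.0143 on the log2 scale and by 0.0107 without the 7 libraries of low share. For accessibility after generation 0, where limma called no arm element, DESeq2 called 46, the share of the 500 highest elements as a covariate 36, thinning to the shallowest library 3 and leaving out the 7 libraries of low share 1. For the trend, where limma again called none, scaling by TMM gave 2, DESeq2 8, that covariate 13, the log2 read total 1 and leaving out a lineage 0 to 3. At generation 6 the 190 calls became 97 in edgeR, 43 with the read total, 106 after thinning and 30 to 157 without a lineage. The single trend call in expression, clec-42, became 0 with no filter on low counts, where the slope was the same (-0.06) and the adjusted p 0.057 over 27790 genes. The share of Z-score changes was 5.79% at a cut-off of 2 and 1.28% at 3, and the median expression near arm elements was 387 counts among genes with a mean of at least 10. With generation as a replicate block, the lineage comparisons still called 0 arm elements. At an unadjusted p under 0.05 there were 132, 144 and 377 for A, B and C, against 99, 98 and 343 in the main fit. For A the block gave 1269 of 31498 over all elements, and for B and C no background is given. The fits with the covariates, thinning and without 7 libraries were chosen after seeing the data. The GC correction, alone and with the replicate block, was not run. The cause of these differences was not tested. Depth limited low elements most: 3 reads equalled up to 5.37 normalised counts.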
